A study of Saccharomyces cerevisiae with 6 samples.

Results

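The transcripts described here are the unnamed open reading frames of the *S. cerevisiae* annotation, protein-coding frames that carry a systematic identifier such as YBR238C and no gene name. Members were chosen by identifier and by level. They have a plain systematic identifier without a suffix, no name in the deposited annotation, no place in a Ty retrotransposon, and a mean raw count of at least 10 over the 6 libraries. The count minimum was met by 637 of 960 such frames, of 8898 features in all, after 21 Ty frames had been left out. Because members were selected on mean counts, their levels are given as a description. Just inside the minimum were YBL109W with a mean of 10 counts and YDR366C and YHR145C with 10.3 counts each. Just outside it were YOR218C and YDL162C with 9.83 counts each and YDL186W with 9.67 counts.

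Unnamed frames were entered in the yeast annotation as stretches that could encode a protein, and many still have no known function. Current RefSeq annotation has since given some of them a function and a symbol and lacks others, many of which overlap a better supported gene. The RNA exosome, in which Rrp4 is a cap subunit, degrades RNA from its 3′ end in the nucleus and the cytoplasm, and it is known for removing RNA that arises from transcription outside recognized genes. Reads counted on an unnamed frame can therefore come from an mRNA, or from noncoding RNA that happens to cross the frame.

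All 6 libraries came from haploid BY4742 cells that the labels describe as *MATα*, *ura3Δ0*, *leu2Δ0*, *his3Δ1* and *rrp4Δ::NEO*. Both groups lack the chromosomal *RRP4* gene and depend on a Myc-tagged copy on pRS315, a centromeric plasmid marked with *LEU2*. This copy was wild-type *RRP4* in 3 libraries and *rrp4-G226D* in 3, each from a separate biological replicate grown in Leu- minimal medium at 37°C for 5 h. The allele is thus carried by a plasmid in 1 strain background. Total counts were between 7663545 and 12181979 per library. Open reading frames held 72.2% ± 2.31 (SD, n = 3) of the counts of *RRP4* libraries. In *rrp4-G226D* libraries they held 82.7% ± 1.02 (SD, n = 3). Normalized counts are counts per 1000000 counts of a library (CPM) scaled with edgeR's TMM factors, which correct for such shifts in composition. *RRP4* (YHR069C) was present at 178, 167 and 165 CPM in *RRP4* libraries and at 299, 281 and 302 CPM in *rrp4-G226D* libraries, counted from the plasmid copy without distinction of the alleles. The deleted *URA3* gene had 0 counts in all 6 libraries, the α-factor gene *MF(ALPHA)1* ranged from 1062 to 1483 CPM, and the a-factor genes *MFA1* and *MFA2* ranged from 0.506 to 2.97 CPM. Other mating-type genes were less clear-cut. The α-cell genes *STE3* and *MF(ALPHA)2* ranged from 110 to 157 and from 4.3 to 5.83 CPM. The a-cell gene *STE2* ranged from 8 to 13.2 CPM, above *MF(ALPHA)2*. *HIS3* was counted at 62.2 to 92.3 CPM, and the *his3Δ1* allele removes part of that gene only.

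RefSeq's annotation of the R64 assembly, the assembly to which the reads were mapped, holds 474 of the 637 members and lacks 163. The 300 bases around the start codon, from 250 before it to 50 from its first base on, are printed for 6 members on which the results below turn. YBR238C, YNR065C and YPL216W are the increased members with the highest normalized counts outside the Y′ elements described below. YLR255C had the largest increase among the RefSeq members named by rule outside those elements, YDL124W is the decreased member with the highest normalized counts, and YKR075C had the largest decrease among the RefSeq members named by rule. Capitals mark the letters TCTTG on the coding strand, AGGGG on either strand (CCCCT when read from the coding strand) and GATGAG on either strand (CTCATC from the coding strand).
YBR238C (chrII:697253-697552, minus strand): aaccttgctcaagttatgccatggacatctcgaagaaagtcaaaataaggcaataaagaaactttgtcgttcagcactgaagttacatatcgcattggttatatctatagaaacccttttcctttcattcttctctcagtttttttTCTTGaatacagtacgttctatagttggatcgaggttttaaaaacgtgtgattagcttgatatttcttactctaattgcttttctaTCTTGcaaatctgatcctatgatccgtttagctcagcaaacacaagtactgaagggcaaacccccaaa
YNR065C (chrXIV:753651-753950, minus strand): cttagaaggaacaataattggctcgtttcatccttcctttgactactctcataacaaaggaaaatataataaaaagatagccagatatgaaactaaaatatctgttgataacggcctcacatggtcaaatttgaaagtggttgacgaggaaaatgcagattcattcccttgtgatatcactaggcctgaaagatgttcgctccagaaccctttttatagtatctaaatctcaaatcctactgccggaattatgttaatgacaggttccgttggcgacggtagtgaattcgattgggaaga
YPL216W (chrXVI:143571-143870, plus strand): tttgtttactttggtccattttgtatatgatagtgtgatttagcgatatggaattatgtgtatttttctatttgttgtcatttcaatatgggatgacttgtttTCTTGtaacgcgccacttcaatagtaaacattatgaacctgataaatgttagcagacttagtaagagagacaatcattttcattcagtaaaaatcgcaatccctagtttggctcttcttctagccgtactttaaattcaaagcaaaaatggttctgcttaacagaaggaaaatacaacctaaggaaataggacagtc
YLR255C (chrXII:645904-646203, minus strand): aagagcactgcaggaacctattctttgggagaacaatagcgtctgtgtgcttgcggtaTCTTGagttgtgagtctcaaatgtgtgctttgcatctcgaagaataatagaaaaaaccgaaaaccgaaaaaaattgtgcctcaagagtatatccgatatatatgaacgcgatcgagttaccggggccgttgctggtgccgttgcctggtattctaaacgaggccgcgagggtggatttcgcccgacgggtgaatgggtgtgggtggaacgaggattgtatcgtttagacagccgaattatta
YDL124W (chrIV:240009-240308, plus strand): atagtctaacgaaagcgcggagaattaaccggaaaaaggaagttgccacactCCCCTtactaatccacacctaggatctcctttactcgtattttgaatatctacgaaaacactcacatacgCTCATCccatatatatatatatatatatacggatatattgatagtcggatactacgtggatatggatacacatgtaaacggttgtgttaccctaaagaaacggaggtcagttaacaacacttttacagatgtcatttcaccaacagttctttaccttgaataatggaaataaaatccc
YKR075C (chrXI:580701-581000, minus strand): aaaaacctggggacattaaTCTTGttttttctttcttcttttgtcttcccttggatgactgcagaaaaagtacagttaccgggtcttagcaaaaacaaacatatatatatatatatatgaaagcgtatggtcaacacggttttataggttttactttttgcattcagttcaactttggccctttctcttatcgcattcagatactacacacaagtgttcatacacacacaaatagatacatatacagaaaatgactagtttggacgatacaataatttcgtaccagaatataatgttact
TCTTG stands at −104 and −18 from the start codon of YBR238C, at −147 in YPL216W, at −192 in YLR255C and at −231 in YKR075C. The window of YDL124W holds AGGGG, read as CCCCT, at −198 and GATGAG, read as CTCATC, at −128. None of the 4 motifs searched was found in the window of YNR065C.

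Among 7631 features tested, transcripts were called increased or decreased in *rrp4-G226D* relative to *RRP4* cells when edgeR's quasi-likelihood test gave an adjusted p (Benjamini-Hochberg) under 0.05 and the change reached 1.5-fold. Of the 637 members, 629 passed the filter on low counts. Increased members numbered 101 (16.1% of those tested, beside 12.7% of all features tested), decreased members numbered 52 (8.27%, beside 11.3%), and 476 members were not called. The 2 genotypes did not overlap in 337 members (53.6% of those tested, beside 64.1% of all features tested). The median log2 fold change of members was 0.06, beside 0.01 for all features. Counts moved with the scaling: with library size alone, which moved the median of all features to a log2 fold change of 0.46, 252 members were increased and 7 decreased, and with TMM computed on open reading frames only, 117 were increased and 43 decreased. The count minimum itself acted unevenly, since 67 members had a mean below 10 counts in *RRP4* libraries and 1 had a mean below 10 counts in *rrp4-G226D* libraries. Among the 569 members with a mean of at least 10 counts in each genotype, 75 were increased and 51 decreased.

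Members that RefSeq holds and members that it lacks had different counts of calls, a comparison made without a test. Of 473 tested RefSeq members, 51 (10.8%) were increased and 44 (9.3%) decreased, with a median log2 fold change of 0.01. Of 156 tested members absent from RefSeq, 50 (32.1%) were increased and 8 (5.13%) decreased, with a median of 0.39. With a mean of at least 10 counts in each genotype, 36 of 443 RefSeq members (8.13%) were increased and 43 (9.71%) decreased, and 39 of 126 absent members (31%) were increased and 8 (6.35%) decreased. For reference, other classes were taken with a mean of at least 10 counts over the 6 libraries, a minimum that *rrp4-G226D* counts alone can meet. Among named open reading frames, 150 of 4974 (3.02%) were increased. Of stable unannotated transcripts, or SUTs, 225 of 756 (29.8%) were increased, as were 406 of 716 cryptic unstable transcripts, or CUTs (56.7%). CUTs and SUTs are noncoding RNAs, of which CUTs are known for their removal by the nuclear exosome.

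**Figure D1:**
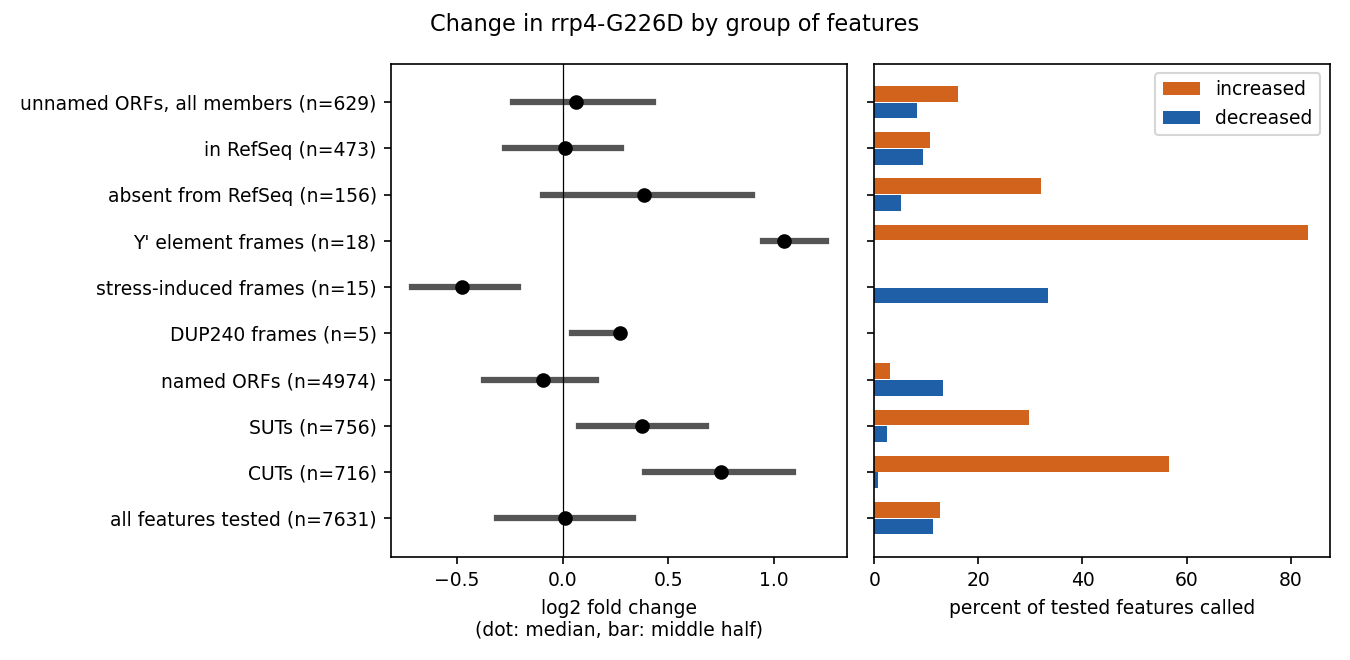
Median and quartiles of the log2 fold changes (left) and percent of tested features called increased or decreased (right) for unnamed open reading frames, their subsets and other feature classes, with the number tested. Members absent from RefSeq had a median of 0.39, beside 0.01 for RefSeq members and 0.38 for SUTs. Named frames, SUTs and CUTs shown have a mean of at least 10 counts over the 6 libraries.

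Members absent from RefSeq were also lower in counts, with a median of 29.5 counts beside 309 for RefSeq members. At mean counts from 10 to under 50, 34 of 115 tested members absent from RefSeq and 25 of 93 RefSeq members were increased, a share of 29.6% and 26.9%. From 50 to under 200 counts the shares were further apart, with 15 of 38 members absent from RefSeq (39.5%) and 13 of 94 RefSeq members (13.8%) increased. Named open reading frames at these counts were increased in 17 of 129 cases (13.2%) in the lower range and in 23 of 416 (5.53%) in the higher range. The lower range includes members that met the count minimum through *rrp4-G226D* counts alone, which raises its shares of increases. Of 59 tested members with a mean below 10 counts in *RRP4* libraries, 26 were increased and 0 decreased. At 1000 counts and more, 2 of 63 RefSeq members were increased and 4 decreased, and no member absent from RefSeq was that abundant.

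**Figure D2:**
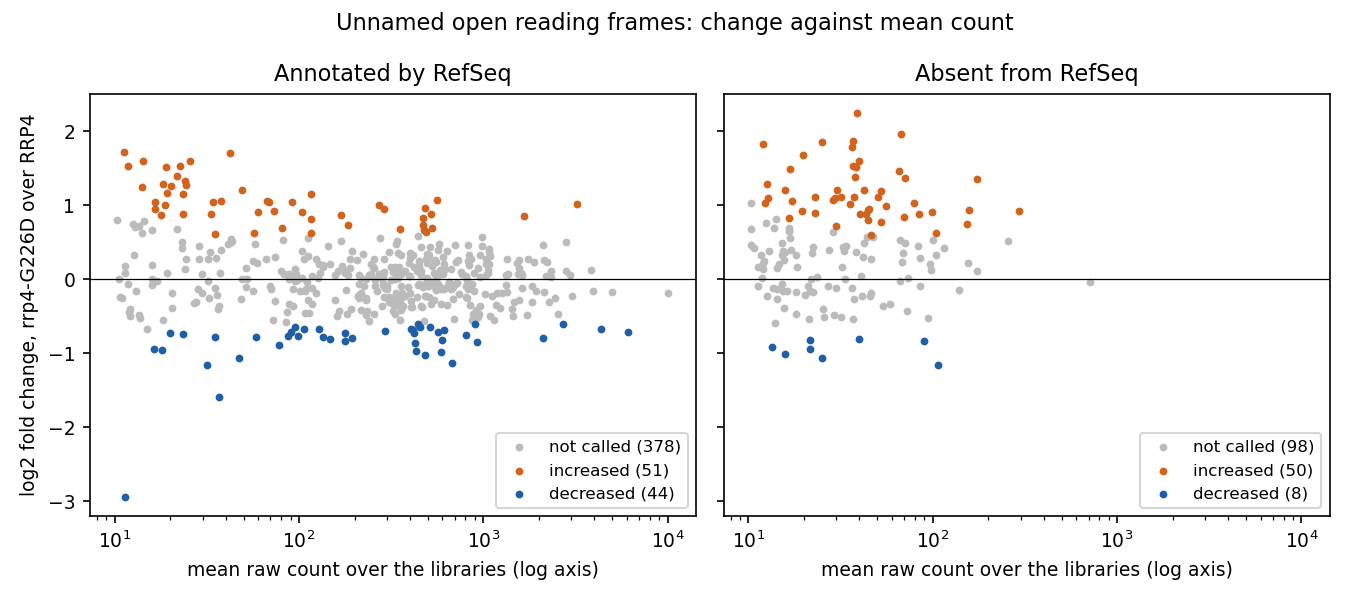
Log2 fold change of each tested member against its mean raw count (log axis), for members in RefSeq (left, 473 frames) and absent from it (right, 156 frames), with called members in color. The increased member absent from RefSeq with the most counts had a mean of 294.

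The largest increases among well counted members, those with a mean of at least 50 counts and no overlap between the genotypes, included 6 frames absent from RefSeq among the first 10. YDR544C, which is numbered next to the Y′ helicase gene *YRF1-1* at the right end of chromosome IV, had 1.94, 2.06 and 3.42 CPM in *RRP4* and 8.24, 9.78 and 10.1 CPM in *rrp4-G226D* libraries. Its sequence, which may be shared with other chromosome ends, was not analysed here. All mutant libraries lay above all control libraries, with a log2 fold change of 1.96 ± 0.22 (SE; edgeR adjusted p = 5.29e-07). YNL114C, numbered next to the RNA polymerase subunit gene *RPC19*, had 3.88, 2.93 and 2.38 CPM in *RRP4* and 8.98, 6.24 and 10.4 CPM in *rrp4-G226D* libraries, a log2 fold change of 1.47 ± 0.24 (SE; adjusted p = 3.76e-05). *RPC19* itself had a log2 fold change of −0.33 and did not pass the fold threshold. YLL037W, numbered between *PRP19* and *ENT4*, had 3.03, 2.39 and 5.8 CPM in *RRP4* and 9.9, 9.7 and 8.41 CPM in *rrp4-G226D* libraries. Its log2 fold change was 1.37 ± 0.23 (SE; adjusted p = 7.16e-05), and its *RRP4* libraries were among the most widely spread of all members with a mean of at least 50 counts. *PRP19*, a splicing factor gene, and *ENT4*, an epsin-like gene, had log2 fold changes of −0.01 and −0.02.

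YER097W had the highest mean count of the absent frames in this set, with 9.21, 7.16 and 10.7 CPM in *RRP4* and 22.5, 21.6 and 23.9 CPM in *rrp4-G226D* libraries. The groups were far apart, with a log2 fold change of 1.35 ± 0.14 (SE; adjusted p = 1.49e-07). Its numbered neighbours on the same strand, the chitin synthesis gene *SHC1* and the ubiquitin protease gene *UBP9*, had log2 fold changes of 0.41 and 0.03, neither past the fold threshold. YLR463C rose by 1.19 ± 0.25 (SE) on the log2 scale (adjusted p = 0.000623), from 4, 3.15 and 1.34 CPM to 7.68, 6.33 and 6.13 CPM. It is numbered between YLR462W and YLR464W, which belong to the Y′ frames described below. YDL221W, numbered next to the telomere-capping gene *CDC13*, rose by 1.11 ± 0.21 (SE; adjusted p = 0.000241), from 2.67, 3.69 and 2.23 CPM to 5.92, 6.33 and 6.7 CPM. YJR020W is named here for its spread within *RRP4* libraries, where it had 3.88, 3.8 and 7.14 CPM, and it had 8.89, 10.6 and 9.76 CPM in *rrp4-G226D* libraries. All of its mutant libraries remained above the highest control library, with a log2 fold change of 1.03 ± 0.21 (SE; adjusted p = 0.000342).

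Several absent frames outside the rule for named genes were chosen after their values were seen. YHR217C had the largest log2 fold change among tested members, 2.24 ± 0.35 (SE), on a mean of 38.7 counts that lay below 10 in *RRP4* libraries, and is numbered 3 from the end of the right arm of chromosome VIII. YKL030W had a log2 fold change of 1.86 ± 0.25 (SE) on 37 counts and YGL109W one of 1.86 ± 0.34 (SE) on 25.2 counts. YPL114W was the best counted increased frame absent from RefSeq, with a mean of 294 counts and a log2 fold change of 0.92 ± 0.11 (SE; adjusted p = 1.23e-06). The most abundant absent frame, YLR294C, had a mean of 717 counts and a log2 fold change of −0.04 (adjusted p = 0.616). The genes numbered next to the 50 increased absent frames were for the most part not called. Of 90 such genes tested, 4 were increased and 6 decreased, beside 12.7% and 11.3% of all features tested. Most of these genes are named open reading frames, of which 3.02% were increased and 13.2% decreased. Neighbours of members not called had 45 increased and 122 decreased of 857 tested. The median log2 fold change of the 90 genes next to increased absent frames was −0.04. Positions of absent frames relative to these genes were not analysed here, and the strand setting used in counting is not given in the sources used here, so that reads of a frame and of a gene that overlaps it on the other strand may not be separated.

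**Figure D3:**
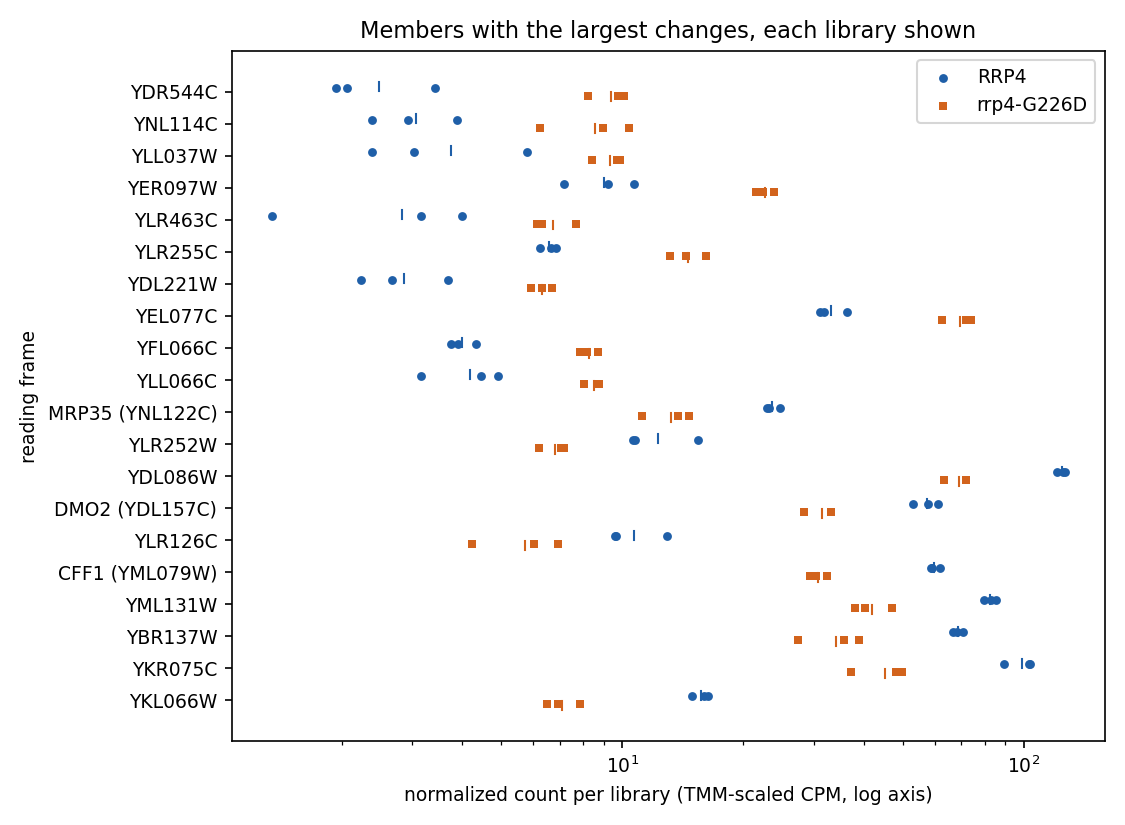
Normalized counts (TMM-scaled CPM, log axis) in each library for the 10 largest increases and 10 largest decreases among members with a mean of at least 50 counts and no overlap between genotypes, with ticks at the group means. The 3 *rrp4-G226D* libraries (squares) lie on one side of the 3 *RRP4* libraries (circles) in each frame, as the rule required.

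YLR255C, on chromosome XII and annotated by RefSeq only as a protein conserved across *S. cerevisiae* strains, had the largest increase of RefSeq members in this set. It had 6.66, 6.83 and 6.24 CPM in *RRP4* and 13.1, 14.4 and 16.2 CPM in *rrp4-G226D* libraries. The spread within each genotype was small beside the difference, and the log2 fold change was 1.15 ± 0.14 (SE; edgeR adjusted p = 2.36e-06). The adjacent *HAP1*, a transcription factor gene that responds to heme, had a log2 fold change of 0.53, under the fold threshold, and *NDL1* one of 0.14.

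The most abundant increased members were chosen for description after their values were seen. YBR238C, a mitochondrial membrane protein with the paralog Rmd9, had 208, 190.4 and 186 CPM in *RRP4* and 387, 373 and 429 CPM in *rrp4-G226D* libraries. The groups were far apart, with a log2 fold change of 1.02 ± 0.07 (SE; adjusted p = 1.04e-09), on a mean of 3226 counts. YNR065C had 98.6, 117 and 114 CPM in *RRP4* and 187, 209 and 199 CPM in *rrp4-G226D* libraries, and its neighbour YNR066C, a putative membrane protein on the same strand, rose with it. Their log2 fold changes were 0.86 ± 0.07 and 0.84 ± 0.10 (SE), while the genes on either side of the pair, YNR064C (−0.72) and *DSE4* (−0.60), were decreased. YPL216W, a paralog of the chromatin remodeling subunit Itc1, rose by 0.69 ± 0.08 (SE) on the log2 scale, from 40.8, 38.6 and 33.9 CPM to 57.1, 63.3 and 63 CPM. YJL107C, which RefSeq describes as induced through the osmotic stress kinase Hog1, rose by 0.88 ± 0.08 (SE), and *PRM10*, the gene that it overlaps on the same strand, was increased as well (0.86). YDR042C, whose expression RefSeq lists as increased in a mutant of the transcription termination factor Ssu72, had 17.8, 15.3 and 16.9 CPM in *RRP4* and 34.2, 28.9 and 36.6 CPM in *rrp4-G226D* libraries. These groups did not overlap, and the log2 fold change was 1.00 ± 0.11 (SE; adjusted p = 5.61e-07).

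Frames of the Y′ elements rose in 15 of 18 cases. Y′ elements are repeated blocks next to the telomere repeats at many yeast chromosome ends, and their longest frames encode helicase-like proteins. Of a list of 24 unnamed Y′ frames, 19 were members and 18 were tested. Of these, 15 were increased (83.3%, beside 12.7% of all features tested) and 3 were not called. Their median log2 fold change was 1.05, beside 0.01 for all features tested. YBL111C, YEL075C, YEL076C and YLL067C, which are among the 15, had means below 10 counts in *RRP4* libraries. Of the 12 frames with at least 10 counts in each genotype, 11 were increased. The summed level of the 19 frames was 120.2, 121 and 124 CPM in *RRP4* and 222, 254 and 258 CPM in *rrp4-G226D* libraries, so that every mutant library held more than every control library, by 2.01-fold between the means. No frame was decreased by edgeR or DESeq2, nor at an unadjusted p under 0.05, and DESeq2 called 14 increased. The counts with edgeR were also 15 with RLE and with TMM over open reading frames, and 18 with library size alone.

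Y′ frames share sequence with each other. The last 300 bases of the 3 Y′ frames with the highest counts are printed as an example, with capitals marking bases that differ from YEL077C.
YEL077C (chrV:264-563, minus strand): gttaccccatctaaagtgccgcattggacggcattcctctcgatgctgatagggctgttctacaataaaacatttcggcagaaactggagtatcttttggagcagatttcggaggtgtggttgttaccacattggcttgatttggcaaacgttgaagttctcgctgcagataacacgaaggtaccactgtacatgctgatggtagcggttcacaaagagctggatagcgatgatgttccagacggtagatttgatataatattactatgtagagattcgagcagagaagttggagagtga
YBL113C (chrII:280-579, minus strand): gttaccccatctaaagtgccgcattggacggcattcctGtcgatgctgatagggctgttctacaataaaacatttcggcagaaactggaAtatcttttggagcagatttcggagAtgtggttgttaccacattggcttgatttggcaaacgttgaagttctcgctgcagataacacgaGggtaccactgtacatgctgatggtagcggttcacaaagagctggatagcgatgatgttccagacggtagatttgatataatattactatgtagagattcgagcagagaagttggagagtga
YHL050C (chrVIII:445-744, minus strand): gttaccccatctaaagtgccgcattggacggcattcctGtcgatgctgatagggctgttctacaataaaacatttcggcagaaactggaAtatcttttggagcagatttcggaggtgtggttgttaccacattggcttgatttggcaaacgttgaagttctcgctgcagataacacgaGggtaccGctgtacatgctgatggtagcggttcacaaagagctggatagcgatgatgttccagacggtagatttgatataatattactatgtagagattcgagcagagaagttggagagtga
YBL113C and YHL050C each differed from YEL077C at 4 of these 300 bases. Over whole frames, between 0% and 42.3% of 100-base windows of a Y′ member occur once in the genome, whereas most of the other RefSeq members named here are unique throughout. How reads that map to several places were counted is not given in the sources used here, so reads may be split between copies or left out, and the values of single Y′ frames are uncertain.

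YEL077C, at the left end of chromosome V (264 to 4097), had 31.1, 36.3 and 31.8 CPM in *RRP4* and 62.6, 74 and 72 CPM in *rrp4-G226D* libraries. The genotypes were well separated, and its log2 fold change was 1.07 ± 0.09 (SE; edgeR adjusted p = 1.16e-08). YBL113C, at the left end of chromosome II (280 to 2658), had 30.5, 29.9 and 30.2 CPM in *RRP4* and 53.5, 60.4 and 63.1 CPM in *rrp4-G226D* libraries, a log2 fold change of 0.97 ± 0.08 (SE). YHL050C, at the left end of chromosome VIII (445 to 3311), had 21.2, 16.3 and 16.8 CPM in *RRP4* and 28.7, 38 and 37.6 CPM in *rrp4-G226D* libraries, a log2 fold change of 0.95 ± 0.13 (SE). These 3 frames held the largest shares of their sequence that occur once in the genome, 32.3%, 38.8% and 42.3%.

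The remaining increased Y′ frames had fewer counts. YPR204W, at the right end of chromosome XVI and named there as a DNA helicase, rose by 0.87 ± 0.14 (SE) on the log2 scale, and YJL225C, YLL066C and YFL066C rose by 1.04, 1.04 and 1.06. YHR219W, at the right end of chromosome VIII, had 2.42, 1.41 and 1.34 CPM in *RRP4* and 3.61, 7.34 and 6.06 CPM in *rrp4-G226D* libraries. These groups did not overlap, with a log2 fold change of 1.71 ± 0.31 (SE). The frames YBL111C (1.52), YLL067C (1.40), YML133C (1.28), YER189W (1.15), YFL064C (1.05), YEL076C (1.04) and YEL075C (1.71) had means of 11.2 to 37.5 counts. YEL075C, counted at 0 in *RRP4* replicate 2, was no longer called without *RRP4* replicate 1 (1.57) or 2 (1.04), and reached 3.07 without *RRP4* replicate 3. YEL076C was no longer called without *RRP4* replicate 1 (0.78) or 3 (0.98) or *rrp4-G226D* replicate 1 (0.76). Not called were YFL065C (0.75, adjusted p = 0.101), YLR462W (0.72, adjusted p = 0.157) and YPR202W (0.36, adjusted p = 0.204), and YHL049C was not tested.

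**Figure D4:**
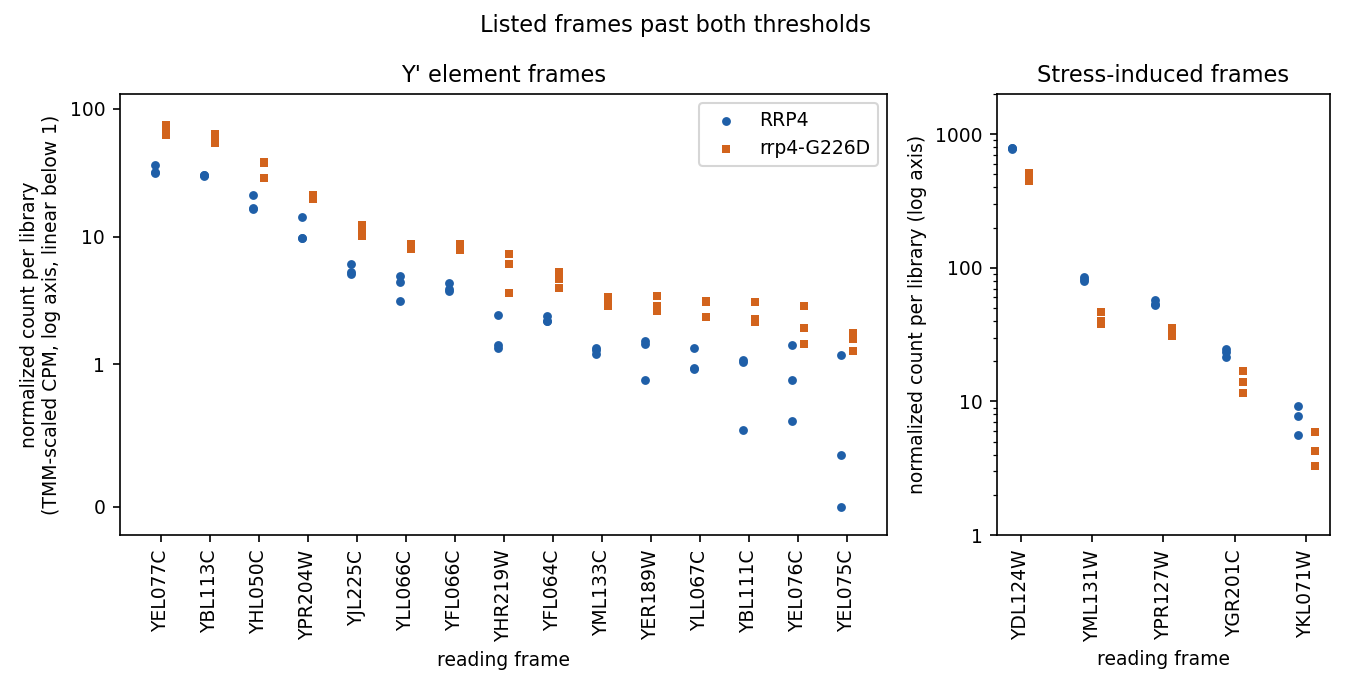
Normalized counts (TMM-scaled CPM) in each library for the 15 increased Y′ frames (left, linear below 1) and the 5 decreased stress-induced frames (right, log axis), ordered by level. The *rrp4-G226D* libraries (squares) lie above the *RRP4* libraries (circles) in all 15 Y′ frames and below them in 4 of the 5 stress-induced frames, with OSI1 (YKL071W) overlapping.

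Increases near chromosome ends were counted with and without the listed Y′ frames. Systematic numbers count frames outward from the centromere, and 67 members had a number within 10 of the last on its arm. Of 65 tested, 28 (43.1%) were increased and 2 (3.08%) decreased, beside 12.7% and 11.3% of all features tested. Their median log2 fold change was 0.52. With at least 10 counts in each genotype, 19 of 52 (36.5%) were increased and 2 decreased. Without the listed Y′ frames, 13 of 47 (27.7%) were increased and 2 decreased, with a median of 0.29. Of the 40 of these with at least 10 counts in each genotype, 8 (20%) were increased and 2 decreased. Both counts still include absent frames numbered next to Y′ frames or genes, such as YDR544C and YLR463C. They therefore do not describe chromosome ends free of Y′ elements. Of 564 members farther inside, 73 (12.9%) were increased and 50 (8.87%) decreased, with a median of 0.04. Of the 517 of these with at least 10 counts in each genotype, 56 (10.8%) were increased and 49 (9.48%) decreased. Near-end members that are not Y′ frames included YIR043C, a blocked frame of the subtelomeric Cos family, with 0.848, 1.19 and 1.34 CPM in *RRP4* and 2.78, 3.37 and 3.99 CPM in *rrp4-G226D* libraries. Its adjacent frame YIR042C was increased as well, with log2 fold changes of 1.60 and 0.70. YKR104W, part of a putative multidrug transporter (0.81), YOL163W, a remnant of a sulfonate transporter (0.92), and YGL262W (1.60) were further examples, picked after their values were seen.

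**Figure D5:**
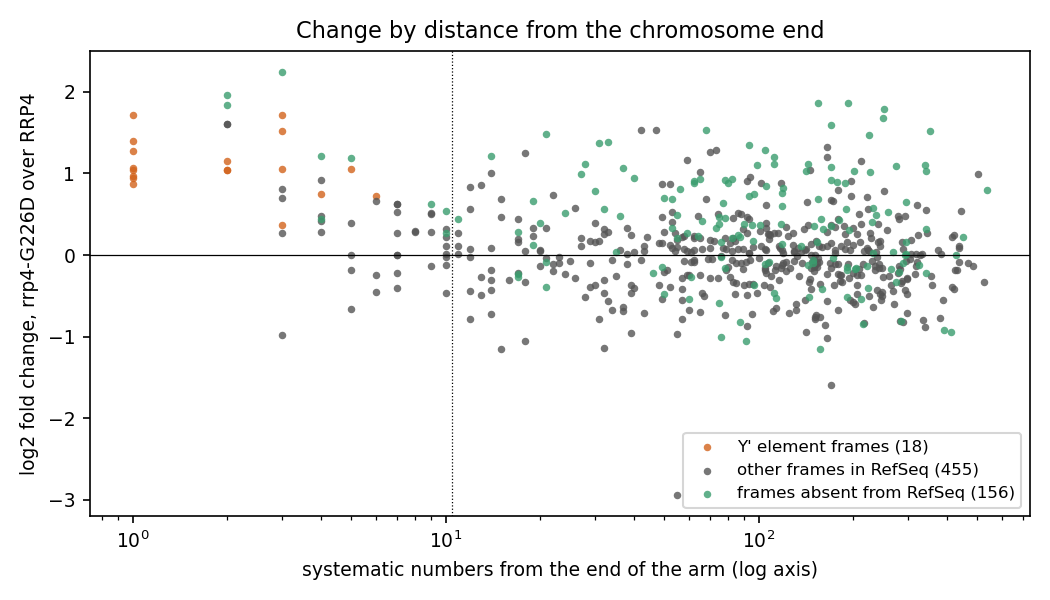
Log2 fold change of each tested member against its systematic number counted from the end of its chromosome arm (log axis), with Y′ frames, other RefSeq members and frames absent from RefSeq in separate colors and a dotted line after number 10. Within 10 numbers of an end, 28 of 65 members were increased and 2 decreased. With at least 10 counts in each genotype, 19 of 52 were increased.

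The DUP240 family, short membrane proteins encoded in repeated clusters, contributed 5 members and none was called by edgeR or DESeq2, while 2 were higher and 0 lower at an unadjusted p under 0.05. *KTD1* (YAR028W), which protects cells from a killer toxin, had 44.3, 41 and 44.8 CPM in *RRP4* and 57.7, 50.9 and 54.9 CPM in *rrp4-G226D* libraries. Its groups did not overlap, and the log2 fold change of 0.33 ± 0.08 (SE; edgeR adjusted p = 0.00133) lay under the fold threshold. *DFP4* (YHL044W), *DFP3* (YCR007C), *DFP2* (YAR029W) and *DFP1* (YAR023C) had log2 fold changes of 0.27, 0.28, 0.05 and −0.10. With library size alone 3 of the 5 frames were called increased.

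RefSeq frames made up 44 of the 52 decreased members. YKR075C, on chromosome XI, is similar to Reg1, a regulator of glucose repression, and had 103, 104 and 89.5 CPM in *RRP4* and 48.1, 37.2 and 49.9 CPM in *rrp4-G226D* libraries. The groups did not overlap, with a log2 fold change of −1.14 ± 0.09 (SE; adjusted p = 1.31e-08), and its divergent neighbour *ECM4*, a glutathione transferase gene, was decreased too (−0.72). YBR137W, which takes part in delivering tail-anchored proteins to the endoplasmic reticulum, had 66.8, 68.4 and 70.8 CPM in *RRP4* and 39, 35.7 and 27.4 CPM in *rrp4-G226D* libraries, a log2 fold change of −1.02 ± 0.10 (SE; adjusted p = 1.15e-07). The checkpoint kinase gene *MEC1*, upstream of it on the same strand, changed in the opposite direction, with a log2 fold change of 0.60.

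*CFF1* (YML079W), a cupin family protein, had 62, 58.9 and 59 CPM in *RRP4* and 32.4, 29.4 and 30.4 CPM in *rrp4-G226D* libraries, and the replicates of each genotype lay close together. Its log2 fold change was −0.97 ± 0.08 (SE; edgeR adjusted p = 8.91e-09), and the next gene on the same strand, the mitochondrial prolyl isomerase gene *CPR3*, was decreased as well (−0.93). *DMO2* (YDL157C), a disulfide oxidoreductase of the mitochondrial inner membrane, had 61.1, 57.8 and 53.1 CPM in *RRP4* and 33, 28.4 and 33.1 CPM in *rrp4-G226D* libraries (log2 fold change −0.87 ± 0.09 SE). YDL158C, an absent frame numbered next to it on the same strand, was also decreased (−1.06). *MRP35* (YNL122C), a mitochondrial ribosomal protein, fell by 0.83 ± 0.12 (SE) on the log2 scale, YDL086W, a putative carboxymethylenebutenolidase, fell by 0.85 ± 0.06 (SE), and YLR126C, a putative glutamine amidotransferase, fell by 0.88 ± 0.19 (SE). None of these overlapped between genotypes, which the rule for naming them required.

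Frames absent from RefSeq made up 8 of the 52 decreased members. YKL066W had 14.9, 15.9 and 16.4 CPM in *RRP4* and 7.87, 6.49 and 6.91 CPM in *rrp4-G226D* libraries, a log2 fold change of −1.15 ± 0.14 (SE; edgeR adjusted p = 1.06e-06). Its numbered neighbour on the same strand, the nucleoside diphosphate kinase gene *YNK1*, was decreased as well (−0.88). YLR252W had 10.7, 10.7 and 15.5 CPM in *RRP4* and 7.03, 7.17 and 6.2 CPM in *rrp4-G226D* libraries (log2 fold change −0.84 ± 0.17 SE), and its same-strand neighbours *SYM1* and *CQD2* had log2 fold changes of −0.44 and −0.36, under the fold threshold. Over all decreased members, 19 of 97 tested neighbours were decreased and 5 increased, beside 11.3% and 12.7% of all features tested. On the same strand 16 of 64 of these neighbours were decreased, and on the opposite strand 3 of 33. For members not called these counts were 56 of 411 and 66 of 446. Decreased members appear as neighbours of each other here, such as *DMO2* beside YDL158C and YKL070W beside YKL071W (*OSI1*). Members not called had 122 decreased and 45 increased of 857 tested neighbours, and increased RefSeq members had 7 decreased and 18 increased of 73, a count in which adjacent members, Y′ frames included, appear as neighbours of each other.

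Among stress-induced frames, a list of 15 members known to rise in osmotic, oxidative or general stress, 5 (33.3%) were decreased, none was increased and 10 were not called. Of all features tested, 11.3% were decreased and 12.7% increased. For the listed frames DESeq2 gave the same counts of calls, and at an unadjusted p under 0.05 in edgeR 9 were lower and 0 higher. The median log2 fold change of the list was −0.48. The summed level was 1954, 2018 and 2015 CPM in *RRP4* and 1548, 1510 and 1374 CPM in *rrp4-G226D* libraries, without overlap. YDL124W, an NADPH-dependent reductase and the second most abundant member, had 775, 786 and 790.1 CPM in *RRP4* and 511, 478 and 450.4 CPM in *rrp4-G226D* libraries. Its log2 fold change was −0.71 ± 0.06 (SE; edgeR adjusted p = 2.8e-08). YML131W, similar to medium-chain dehydrogenases, had 79.8, 82.8 and 85.3 CPM in *RRP4* and 47.1, 38.1 and 40.3 CPM in *rrp4-G226D* libraries, a log2 fold change of −0.98 ± 0.08 (SE). YPR127W, a putative pyridoxine dehydrogenase, YGR201C and the aldehyde reductase gene *OSI1* (YKL071W) had log2 fold changes of −0.73, −0.72 and −0.78. *OSI1* overlapped between genotypes, with 7.75, 9.22 and 5.65 CPM in *RRP4* and 5.92, 3.29 and 4.28 CPM in *rrp4-G226D* libraries. Its call was lost without *RRP4* replicate 2, at a log2 fold change of −0.60 (adjusted p = 0.0577). The adjacent YKL070W, induced by the same mycotoxin as *OSI1* according to RefSeq, was decreased (−0.74). With library size alone no frame of the list was called and its median was −0.03, beside 0.46 for all features.

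Decreases were counted in frames whose RefSeq notes hold any of a set of enzyme words, a grouping made after the annotation had been read. Of 56 members whose note names a reductase, dehydrogenase, oxidase, hydrolase, hydratase, transferase, esterase or aldolase, 14 (25%) were decreased and 0 increased by edgeR. Of all features tested, 11.3% were decreased and 12.7% increased. The median log2 fold change of the 56 members was −0.18. DESeq2 called 11 decreased and 0 increased, and at an unadjusted p under 0.05 in edgeR 24 were lower and 6 higher. The other 417 tested RefSeq members included 30 decreased (7.19%) and 51 increased, with a median of 0.04. Helicase and lipase were not among the words. Of 13 members with a helicase note 10 were increased and 0 decreased. These 10 are Y′ frames already counted above, not a separate set. The lipase gene *LPX2* (YKL050C) was increased too. With library size alone the enzyme group had 11 increased and 1 decreased member, at a median 0.19 below that of all features, the same distance as with TMM. YMR315W, an NADPH-linked oxidoreductase, had 273, 277 and 283 CPM in *RRP4* and 165, 166 and 150.2 CPM in *rrp4-G226D* libraries (log2 fold change −0.79 ± 0.06 SE). YJL068C, a formylglutathione hydrolase, YNL040W, a tRNA editing hydrolase, and YPL113C, a glyoxylate reductase, had log2 fold changes of −0.75, −0.71 and −1.60. The largest decrease among tested members was that of YFL012W, a frame transcribed in sporulation, at −2.94 ± 0.51 (SE) on a mean of 11.3 counts. It is the 1 member that met the count minimum with a mean below 10 counts in *rrp4-G226D* libraries.

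Frames whose RefSeq note mentions conservation among *S. cerevisiae* strains had low counts, with a median of 26.6 beside 384 for the enzyme group. Of 44 such members, 13 (29.5%) were increased and 1 decreased, with a median log2 fold change of 0.29. With at least 10 counts in each genotype, 7 of 33 (21.2%) were increased and 1 decreased. Increases made up 12.7% of all features tested and 26.9% of RefSeq members with 10 to under 50 counts, which had a median of 0.28. YIL012W had 2.18, 3.04 and 2.82 CPM in *RRP4* and 5.65, 6.66 and 6.27 CPM in *rrp4-G226D* libraries, a log2 fold change of 1.21 ± 0.21 (SE). YLR302C and YBL071C, both of which overlap another gene, had log2 fold changes of 1.32 and 1.54. All 3 frames have a mean under 50 counts.

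RefSeq now gives a symbol to 70 members, and 1 of these was increased (1.43%, beside 12.7% of all features tested) and 8 decreased (11.4%, beside 11.3%). The increased one, *LPX2* (YKL050C), encodes a peroxisomal lipase and had 32, 37.2 and 34.2 CPM in *RRP4* and 47.9, 61.6 and 54.9 CPM in *rrp4-G226D* libraries. Its log2 fold change of 0.67 ± 0.10 (SE; edgeR adjusted p = 1.03e-05) fell to 0.57, under the fold threshold, without *rrp4-G226D* replicate 2. Decreased were *CFF1*, *DMO2*, *MRP35* and *OSI1*, described above, with *HAB1* (YBR285W), an autophagy receptor (−1.06), *CPP2* (YDR210W), a tail-anchored protein of the plasma membrane (−0.79), *CAL4* (YJR011C), an accessory component of the Ccr4-Not complex (−0.76), and *DMO1* (YJR120W), needed for anaerobic growth (−0.71). *DMO1* lies next to *ATP2*, a subunit of the mitochondrial ATP synthase on the same strand, which was decreased as well (−0.62).

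The 5 members with the highest normalized counts included 2 that were decreased. YNL190W, a cell wall hydrophilin needed for survival of desiccation, had 1092, 1068 and 1065 CPM in *RRP4* and 962, 927 and 939.7 CPM in *rrp4-G226D* libraries. Per kilobase of coding length its mean was 1641 CPM, beside a median of 28.6 over RefSeq members. Its groups did not overlap, and its log2 fold change of −0.19 ± 0.06 (SE; edgeR adjusted p = 0.0111) lay far under the fold threshold. YLR257W and YGR054W, the latter encoding the initiation factor eIF2A, had log2 fold changes of −0.18 and −0.16, also under the threshold. YDL124W and YNL208W, which RefSeq lists as copurifying with ribosomes, were both abundant and decreased, and YNL208W had 572, 569 and 506 CPM in *RRP4* and 370.4, 306 and 359.5 CPM in *rrp4-G226D* libraries (log2 fold change −0.67 ± 0.07 SE). *SSB2*, the ribosome-associated chaperone gene before it on the same strand, was decreased too (−0.91). As a share of all counts, members made up 2.25% ± 0.084 (SD, n = 3) of the *RRP4* libraries. The *rrp4-G226D* libraries gave 2.95% ± 0.065 (SD, n = 3). Members absent from RefSeq held 0.0549% ± 0.0023 and 0.097% ± 0.0014 of all counts (SD, n = 3), a 1.77-fold difference between the means, beside 1.15-fold for all open reading frames.

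Of the letters searched around the start codons, TCTTG is an RNA element bound by the termination factor Nab3 and was searched on the coding strand. AGGGG, the stress response element bound by Msn2 and Msn4, was searched on both strands. The PAC element of ribosome biogenesis genes, GATGAG, was searched on both strands, and its last 2 letters can be shared with the stress response element. The RRPE element of these genes, also searched on both strands, has the letters AAAATTT. The Nab3 element occurred in 25 of 50 windows of increased RefSeq members (50%), in 11 of 44 of decreased members (25%), in 126 of 377 of members not called (33.4%) and in 32.0% of 5910 windows of protein-coding genes. Without the Y′ frames, 19 of 35 windows of increased members held it (54.3%). AGGGG occurred in 24% of windows of increased members, in 29.5% of decreased members, in 29.2% of members not called and in 21.9% of all windows. The PAC element occurred in 14%, 15.9% and 14.3% of these member windows, beside 19.9% of all windows. The RRPE element occurred in 16%, 13.6% and 21%, beside 23.5%. These are matches of letters only, and in a window that is transcribed only in part.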

How the data were processed

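RNA-seq was performed on 3 cultures of each genotype. The authors depleted rRNA from total RNA, made stranded cDNA libraries, aligned reads with STAR to the R64 genome with noncoding transcripts added to its annotation, and assigned them to features with featureCounts 1.6.4. What they deposited are raw counts, with no scaling applied. The submitters' processing notes also name bcl2fastq 2.17 and DESeq2 2.11.40.6. The deposited DESeq2 table (fold changes and p-values of the authors' comparison) was used for gene names only. Strand and multi-mapping settings are not given in the sources used here.

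Counts were tested with edgeR 4.0.16 in R 4.3.3 (TMM, filterByExpr by genotype, quasi-likelihood test, genotype as the only term) over all 7631 features passing the filter, with Benjamini-Hochberg adjustment. SEs were taken as the absolute log2 fold change over √F. CPM are counts per 1000000 of the scaled library. Tables were made with Python 3.11.15. Names, notes, positions and sequences came from RefSeq's R64 annotation, matched by locus tag for 6048 of 8898 features. Members and gene lists were chosen with earlier results of these data known. The lists hold genes that are generally known by these roles.

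Named genes were the 10 largest changes in each direction among called members with a mean of at least 50 counts and no overlap between genotypes, the 5 members with the highest normalized counts, 3 on each side of the count minimum, called members of the Y′, DUP240 and stress lists, called members with a RefSeq symbol, the 3 members of largest spread within a genotype, and *RRP4*. Any other gene was picked with its values in view.

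The test was run on simulated counts. Of 200 features changed by 0.8 on the log2 scale edgeR recovered 168, with 1 false call among 7567 features, and of 200 changed by 1.5 it recovered 192, with 4 false calls among 7562. Alternatives were DESeq2 1.42.0, RLE, library size only, TMM over open reading frames, no filter, a mean of at least 50 counts, at least 2-fold, glmTreat, a replicate block and leaving out each library. Totals of 7663545 to 12181979 counts per library leave few counts on many members.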

Additional observations from a re-analysis of the deposited data

How the results depend on the processing

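Members had more increases than decreases under every setting run, and the numbers moved with scaling and thresholds. With library size only, increased and decreased features were 2880 and 152, members 252 and 7, RefSeq members 165 and 5, members absent from RefSeq 87 and 2, and the median log2 fold change of members 0.51. TMM over open reading frames moved that median to 0.14. With at least 2-fold the counts were 411 and 189 for all features, 57 and 9 for members, 26 and 6 for RefSeq members and 31 and 3 for absent members. With glmTreat against 1.5-fold they were 347 and 445, 39 and 14, 20 and 13, and 19 and 1, so that decreases outnumbered increases among all features. With a mean raw count of at least 50, 46 members were increased and 34 decreased, with 30 increased and 32 decreased RefSeq members and 16 increased and 2 decreased absent members. DESeq2 called 90 members increased and 46 decreased, and 87 and 46 of these were shared with edgeR.

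Over fits leaving out 1 library, the median of members ranged from 0.0457 to 0.0743 and the decreased members absent from RefSeq numbered 5 without *RRP4* replicate 3 and 8 with all libraries. Of 44 called named genes, *RRP4* included, 4 lost the call without some library (YEL075C, YEL076C, *OSI1* and *LPX2*), 1 with DESeq2 (YEL076C), 20 at 2-fold, 18 with glmTreat and 16 with library size only, and none changed direction. Same-numbered libraries did not deviate together (correlations 0.02, 0.07 and −0.07). These values cannot show whether same-numbered cultures were grown or processed together. With the replicate block 99 members were increased and 52 decreased, and no named gene lost its call. Further settings were chosen after seeing the data. Without the Y′ frames 86 members were increased and 52 decreased, and with a mean of at least 10 counts in each genotype the median was 0.0248, and without the Y′ frames 0.0526.

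As a share of raw counts on open reading frames, members made up 3.11% of *RRP4* and 3.56% of *rrp4-G226D* libraries. Members with at least 50 counts made up 2.88% of all counts in *rrp4-G226D* libraries. Depth limits members under 50 counts, how reads shared between Y′ copies were counted is not given, and frames absent from RefSeq have no positions here.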

Other observations

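Coding length and overlap were tabulated for RefSeq members as further descriptions, to be read beside the 12.7% increased and 11.3% decreased of all features tested. Of 99 tested members with a coding length under 450 bases, 18 (18.2%) were increased and 10 (10.1%) decreased. From 450 to under 1200 bases, 17 of 218 (7.8%) were increased and 29 (13.3%) decreased, and of 155 members of at least 1200 bases 16 (10.3%) were increased and 5 (3.23%) decreased. Of 17 members that overlap a gene on the opposite strand, 5 (29.4%) were increased and 2 (11.8%) decreased. Of 19 that overlap a gene on the same strand, 6 (31.6%) were increased and 1 (5.26%) decreased. Of 439 tested members that overlap no gene, 41 (9.34%) were increased and 41 decreased. Median counts were 35, 31.8 and 332.5 in these 3 groups, so overlap and low counts were not separated. By length, from shortest to longest, median counts were 43.2, 291 and 548. Increased Y′ frames are part of the longest group (YEL077C, YBL113C, YHL050C, YBL111C, YHR219W, YJL225C, YLL066C, YLL067C, YML133C and YPR204W). Others are in the same-strand group (YEL076C, YER189W and YFL064C), as is YBL113C. Neither length nor same-strand overlap was therefore separated from Y′ sequence. Among 66 members with a paralog from the whole genome duplication, 3 (4.55%) were increased and 7 (10.6%) decreased, and among 36 with a vacuolar note 2 (5.56%) were increased and 1 (2.78%) decreased. Of 40 members whose note mentions mitochondria, 4 (10%) were increased and 9 (22.5%) decreased, with a median log2 fold change of −0.10.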
